A study of Rattus norvegicus with 6 samples.

Results

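The insulin-like growth factor (IGF) axis of the rat kidney was taken as 10 genes listed by symbol: the ligand gene Igf1, the receptor genes Igf1r and Ghr, and the binding protein genes Igfbp1 to Igfbp7. All 10 were found among the 17051 genes of the files, and all 10 were among the 11553 genes that reached the count minimum of 30 in at least 1 rat and were tested. Kidney RNA of 6 male Sprague Dawley rats was sequenced, with 3 rats in each of 2 groups. The AL group (rats 61, 71 and 88) ate standard powdered chow ad libitum. The HD group (rats 64, 67 and 69) ate a hyperammonemic diet. In this diet, amino acids imitating the composition of hemoglobin were added to powdered chow at a daily 3 g per kg of body weight. The diets lasted 7 days, and the labels name no transgene and no other agent in either group. By the study's methods, the diets were followed by surgery under isoflurane anesthesia, with an infusion of para-amino hippuric acid, before blood and urine were collected. Each library came from the kidney tissue of 1 rat, so that *P* values measure the spread between rats. Age and kidney weight were not analysed here, and no value here measures growth of the organ.

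IGF-I is a peptide hormone made mainly in the liver under the control of growth hormone, and also locally in the kidney, where the collecting duct and the glomerulus are known sites. It acts through a tyrosine kinase receptor encoded by Igf1r, whose signal runs through the insulin receptor substrates to PI3K, Akt and mTOR. The IGF binding proteins hold most of the ligand outside cells, prolong its life in the circulation and either limit or aid its access to the receptor. In the kidney the axis is known for its part in filtration and in the enlargement of the organ after a protein load.

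Of the 10 genes, Igfbp2 and Igfbp4 were higher in the HD group and Igfbp7 was lower at an unadjusted *P* value below 0.05 in edgeR, a threshold that 10.6% of all tested genes passed. With adjustment over all tested genes edgeR called 0 members, and DESeq2 called 1, Igfbp2. The ligand Igf1 and its receptor Igf1r passed neither threshold in either tool. Igfbp2, with 2.44-fold more transcript in the HD group, was the member with the largest difference relative to its error. The sequences upstream of the genes that set this pattern are shown for orientation, since the levels of these transcripts were the readout. They are the 250 bases before the annotated start in RefSeq (build GRCr8), on the strand of the gene, 5′ to 3′, for the 3 genes named above and for Igfbp1, which differed most between the rats of the AL group relative to its mean. Capitals mark motifs. GGGCGG is the core of a GC box. TATAAA is the form of a TATA box searched here. The letters CAAAACA are a core of the insulin response element class. The Igfbp1 window is chr14:86261027-86261276, the Igfbp2 window is chr9:81864561-81864810, the Igfbp4 window is chr10:84491221-84491470 and the Igfbp7 window is chr14:31091486-31091735, all on the plus strand.
Igfbp1: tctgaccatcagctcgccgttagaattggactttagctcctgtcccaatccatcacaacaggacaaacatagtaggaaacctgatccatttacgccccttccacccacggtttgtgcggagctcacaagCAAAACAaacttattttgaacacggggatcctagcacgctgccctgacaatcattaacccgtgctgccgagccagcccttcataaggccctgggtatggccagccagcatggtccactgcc
Igfbp2: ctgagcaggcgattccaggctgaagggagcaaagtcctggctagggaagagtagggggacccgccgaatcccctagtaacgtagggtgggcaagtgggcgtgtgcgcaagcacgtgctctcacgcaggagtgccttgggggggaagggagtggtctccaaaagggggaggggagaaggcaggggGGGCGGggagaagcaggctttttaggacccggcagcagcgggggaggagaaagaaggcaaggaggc
Igfbp4: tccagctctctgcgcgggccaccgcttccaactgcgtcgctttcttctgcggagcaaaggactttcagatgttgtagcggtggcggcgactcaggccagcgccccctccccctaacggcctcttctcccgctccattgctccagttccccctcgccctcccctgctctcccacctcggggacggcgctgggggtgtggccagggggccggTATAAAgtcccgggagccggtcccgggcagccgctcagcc
Igfbp7: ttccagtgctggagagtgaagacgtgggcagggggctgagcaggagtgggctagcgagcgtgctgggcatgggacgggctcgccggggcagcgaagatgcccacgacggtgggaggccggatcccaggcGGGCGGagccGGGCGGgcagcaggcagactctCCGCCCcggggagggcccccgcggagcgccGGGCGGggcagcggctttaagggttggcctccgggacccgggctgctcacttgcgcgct

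Igfbp1 held CAAAACA from 121 to 115 bases before its start, and Igf1 was the other member with this motif. Igfbp2 held a single GC box from 66 to 61 bases before its start. Igfbp4 held TATAAA from 40 to 35 bases before its start and was the only member of the 10 with it in this window. Igfbp7 held 4 GC box matches, of which the match written as CCGCCC lies on the opposite strand. Over both strands, GGGCGG was found in 3 of the 10 members (Igf1r, Igfbp2 and Igfbp7) and in 30.5% of the 33469 RefSeq promoter windows of the same length. TATAAA was found in 12.9% and CAAAACA in 5.46% of these windows. The motif TTCNNNGAA, the letters that STAT factors are known to bind, was found in 0 of the 10 members and in 7.67% of all windows. The GC content of the windows was 74.4% for Igfbp7, 68.8% for Igfbp4, 64.0% for Igfbp2 and 52.8% for Igfbp1, against a median of 51.2% over all windows. A match of letters is a description of the window. The deposited counts were made with gene definitions on build rn5, so that a start in GRCr8 need not be the start used for counting.

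The libraries differed in depth by 2.44-fold, from 12499945 estimated counts in rat 64 to 30466461 in rat 69, so that 1 count was worth between 0.0328 and 0.0800 CPM (counts scaled to the library total and multiplied to a common size). Levels below are CPM after TMM normalization, edgeR's correction for the composition of a library, and they are comparable between rats for 1 gene. The kidney markers Slc34a1 of the proximal tubule (1366 to 3518 CPM), Umod of the thick ascending limb (2721 to 4061 CPM) and Aqp2 of the collecting duct (628 to 846 CPM) were abundant in all 6 rats. Several marker sums set rats of the same group apart. The summed podocyte markers were 96.2, 199 and 188 CPM in AL rats 61, 71 and 88, and the summed inner medulla markers of these rats were 294, 542 and 881 CPM. The differences of the members are therefore also given with single rats left out, and those of other pathway genes where a single rat turned the sign or moved a large part of the value.

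Igf1, the ligand, was measured at 8.58, 10.8 and 4.96 CPM in AL rats 61, 71 and 88, and at 1.87, 5.95 and 9.05 CPM in HD rats 64, 67 and 69. The groups overlapped, and rat 64 was the lowest of the 6. The AL mean of 8.10 ± 2.92 CPM (SD, *n* = 3) compared with an HD mean of 5.62 ± 3.60 CPM (SD, *n* = 3). The log2 fold change, HD minus AL, was -0.50 with a standard error of 0.53 and a 95% interval from -1.74 to 0.74 (edgeR, adjusted *P* = 0.804, with an exact two-sided permutation test at *P* = 0.6). The interval held both a reduction and an increase of the ligand transcript, so that neither was detectable with 3 rats in each group. In rat 64 the value rested on 22 counts, with an exact Poisson 95% interval from 13.8 to 33.3 counts that covers counting error only. The log2 fold change was -0.11 without rat 64 and -1.02 without rat 69, and it lay between these values without each of the other 4 rats.

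The files listed 4 transcripts of Igf1 on chr7:28528240-28602541 (rn5, plus strand), which differ in their first exon and in a short exon near the end. The Igf1 gene is known to start from alternative first exons, and the short 52-base exon is an alternative part of the coding end that separates forms of the E peptide. The upstream first exon, chr7:28528240-28528582 (343 bases), took 21.0%, 52.4% and 80.5% of the Igf1 counts in AL rats 61, 71 and 88. It took 27.4%, 48.7% and 40.0% in HD rats 64, 67 and 69, within the range of the AL group. The downstream first exon, chr7:28530392-28530437 (46 bases), held the rest. Transcripts with the 52-base exon (chr7:28586215-28586266) took 14.6%, 23.8% and 0% in rats 61, 71 and 88, and 29.1%, 17.2% and 14.3% in rats 64, 67 and 69. RSEM divided the reads of shared exons among these transcripts, and between 22 and 283 counts stood behind each share, so that the shares are estimates of low precision.

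Igf1r, the receptor that carries the IGF signal into the cell (chr1:129985804-130265822, rn5, plus strand, 21 exons), was at 16.0, 17.5 and 15.9 CPM in AL rats 61, 71 and 88. It was at 18.8, 11.9 and 19.4 CPM in HD rats 64, 67 and 69. The rats of the HD group lay on both sides of the AL group, and rat 67 was the lowest. An AL mean of 16.5 ± 0.920 CPM (SD, *n* = 3) compared with an HD mean of 16.7 ± 4.19 CPM (SD, *n* = 3), and the log2 fold change was 0.02 (edgeR, standard error 0.21, adjusted *P* = 0.987). Its 95% interval ran from -0.47 to 0.51, and its sign turned with library size alone as the scaling (-0.057), without rat 64 (-0.069) and without rat 69 (-0.097).

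Ghr encodes the growth hormone receptor (chr2:72182692-72346118, rn5, minus strand, 10 exons), whose signal drives Igf1 transcription in liver and other tissues. Its level was 136, 143 and 125 CPM in AL rats 61, 71 and 88, and 179, 215 and 126 CPM in HD rats 64, 67 and 69. Rats 64 and 67 were above all rats of the AL group, whereas rat 69 lay among them. Here the AL mean of 135 ± 8.80 CPM (SD, *n* = 3) compared with an HD mean of 174 ± 44.7 CPM (SD, *n* = 3), and the log2 fold change was 0.37 (edgeR, standard error 0.19, 95% interval -0.08 to 0.82, adjusted *P* = 0.554). Without rat 69 it was 0.56 (edgeR, unadjusted *P* = 0.00346, adjusted *P* = 0.193), and without any other single rat it was between 0.18 and 0.41.

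**Figure D1:**
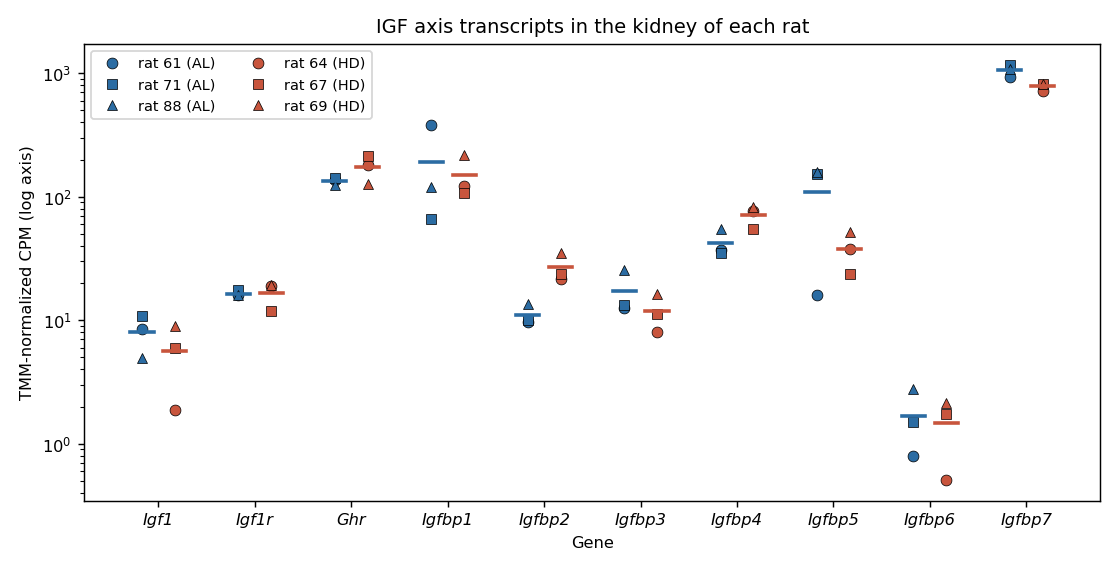
TMM-normalized CPM on a log axis for each of the 10 genes, with 1 symbol for each rat (AL in blue, HD in red) and a bar at the mean of each group. The symbols of the 2 groups do not overlap for Igfbp2, where the HD rats are higher, and for Igfbp7, where they are lower. For Igfbp1 and Igfbp5, rat 61 lies far from rats 71 and 88 of its own group.

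Among the binding proteins, Igfbp2 encodes a secreted carrier that is abundant in fetal tissue and in serum under a low growth hormone state (chr9:79888642-79915193, rn5, plus strand, 4 exons). Its level was 9.61, 10.1 and 13.5 CPM in AL rats 61, 71 and 88. It was 21.6, 23.9 and 35.3 CPM in HD rats 64, 67 and 69. No AL rat reached the level of any HD rat under TMM, under RLE size factors and with library size alone. All HD rats were above all AL rats in 7.25% of the tested genes. The AL mean of 11.1 ± 2.12 CPM (SD, *n* = 3) compared with an HD mean of 26.9 ± 7.35 CPM (SD, *n* = 3). The log2 fold change was 1.29 with a standard error of 0.24 and a 95% interval from 0.74 to 1.83, and the gene took place 27 by *P* value among all tested genes (edgeR, unadjusted *P* = 0.000764, adjusted *P* = 0.327). DESeq2, the tool of the study's methods, gave a log2 fold change of 1.28 with an adjusted *P* value of 0.000902, which is past the threshold, while 1.58% of the genes it tested were past it in either direction and 0.806% were past it on the higher side. The exact permutation test gave *P* = 0.1, the smallest value that 3 against 3 rats allow. Leaving out single rats kept the log2 fold change between 1.04 and 1.46, with adjusted *P* values from edgeR between 0.168 and 0.916.

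Igfbp4 encodes a carrier that is cut by the protease pappalysin and is known mainly for holding IGF away from its receptor (chr10:86747476-86759484, rn5, plus strand, 4 exons). Its level was 36.8, 35.1 and 54.9 CPM in rats 61, 71 and 88, and 76.1, 54.5 and 82.4 CPM in rats 64, 67 and 69. The groups met at rat 88 of the AL group and rat 67 of the HD group, whose levels were nearly equal, and the other rats were separated. An AL mean of 42.2 ± 11.0 CPM (SD, *n* = 3) compared with an HD mean of 71.0 ± 14.6 CPM (SD, *n* = 3), and the log2 fold change was 0.75 (edgeR, standard error 0.22, 95% interval 0.23 to 1.27, unadjusted *P* = 0.0108, adjusted *P* = 0.401). The adjusted *P* value from DESeq2 was 0.103. Without single rats the log2 fold change stayed between 0.63 and 0.99, and the unadjusted *P* value of edgeR stayed below 0.05 without each of the 6 rats.

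Igfbp7 encodes a matrix-associated protein of vessel walls and epithelia that binds IGF with low affinity (chr14:32803851-32863715, rn5, plus strand, 5 exons). It was measured at 926, 1171 and 1082 CPM in AL rats 61, 71 and 88, and at 714, 825 and 819 CPM in HD rats 64, 67 and 69. All HD rats were below all AL rats under all 3 scalings, as in 7.01% of the tested genes under TMM. Here the AL mean of 1060 ± 124 CPM (SD, *n* = 3) compared with an HD mean of 786 ± 62.6 CPM (SD, *n* = 3). The log2 fold change was -0.43 (edgeR, standard error 0.14, 95% interval -0.76 to -0.11, unadjusted *P* = 0.0161, adjusted *P* = 0.406), and DESeq2 gave an adjusted *P* value of 0.0846. The difference was small but lay within a narrow range without single rats, from -0.52 to -0.36. The unadjusted *P* value of edgeR was not below 0.05 without rat 64, without rat 71 or without rat 88.

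Igfbp5, whose product binds to extracellular matrix and is found in mesenchymal cells, lies on chr9:79924622-79937205 (rn5, minus strand, 4 exons). It had 16.0, 153 and 158 CPM in AL rats 61, 71 and 88, and 38.1, 23.7 and 51.5 CPM in rats 64, 67 and 69 of the HD group. Rat 61 was the lowest of the 6, below all rats of the HD group, and rats 71 and 88 were far above all others. The AL mean of 109 ± 80.5 CPM (SD, *n* = 3) compared with an HD mean of 37.8 ± 13.9 CPM (SD, *n* = 3), with a log2 fold change of -1.53 (edgeR, standard error 0.73, 95% interval -3.22 to 0.17, adjusted *P* = 0.510). Without rat 61 it was -2.04 (edgeR, unadjusted *P* = 0.00037, adjusted *P* = 0.112). The same 2 rats had the highest summed inner medulla markers, 542 CPM in rat 71 and 881 in rat 88, against 181 to 299 CPM in the other 4 rats, and the highest summed fibroblast markers, 429 and 357 CPM against 99.8 to 213. The part of these marker levels in the Igfbp5 result was not tested. In RNA of a whole tissue, fewer cells of a type and less RNA in each of these cells cannot be told apart.

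Igfbp1 encodes a carrier whose transcription in liver and kidney is held down by insulin and raised by fasting (chr14:81083056-81088123, rn5, plus strand, 4 exons). Its level was 384, 66.5 and 120 CPM in AL rats 61, 71 and 88, and 122, 108 and 216 CPM in rats 64, 67 and 69 of the HD group. The 3 rats of the HD group lay inside the range of the AL group, which was wide. An AL mean of 190 ± 170 CPM (SD, *n* = 3) compared with an HD mean of 149 ± 58.6 CPM (SD, *n* = 3), and the log2 fold change was -0.35 with a 95% interval from -1.76 to 1.06 (edgeR, standard error 0.60, adjusted *P* = 0.892). Without rat 61 the difference turned to the other side, with a log2 fold change of 0.68 (edgeR, standard error 0.38, unadjusted *P* = 0.118). The direction for Igfbp1 therefore rested on rat 61.

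Igfbp3 encodes the main serum carrier, which forms the large complex with IGF and the acid-labile subunit (chr14:81091987-81099675, rn5, minus strand, 6 exons). It was at 12.6, 13.4 and 25.5 CPM in rats 61, 71 and 88, and at 8.06, 11.1 and 16.4 CPM in rats 64, 67 and 69, and the groups overlapped. The log2 fold change was -0.52 (edgeR, standard error 0.35, 95% interval -1.35 to 0.30, adjusted *P* = 0.659), and it ran from -0.83 without rat 69 to -0.12 without rat 88. Igfbp6 encodes a carrier with a preference for IGF-II (chr7:141546235-141551042, rn5, plus strand, 4 exons). It was the scarcest member, at 0.794, 1.50 and 2.78 CPM in the AL group and 0.509, 1.75 and 2.14 CPM in the HD group, from between 6 and 67 counts in a rat. Its log2 fold change of -0.17 had a 95% interval from -1.62 to 1.29 (edgeR, adjusted *P* = 0.962), and it turned to 0.20 without rat 64 and to 0.38 without rat 88.

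In counts, 3 of the 10 members (Igfbp2, Igfbp4 and Igfbp7) had an unadjusted *P* value below 0.05 in edgeR, against 10.6% of all tested genes. The 2 higher members stood against 4.66% of all tested genes and the 1 lower member against 5.94%. With adjustment over all tested genes, edgeR called 0 of the 10 members and 0% of the tested genes, whereas DESeq2 called 1 member, Igfbp2, and 1.58% of the genes it tested. In edgeR, 4 members were on the higher side and 6 on the lower side with HD, and their median log2 fold change was -0.26 against 0.0067 over all tested genes. The binding proteins with an unadjusted *P* value below 0.05 were found on both sides.

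**Figure D2:**
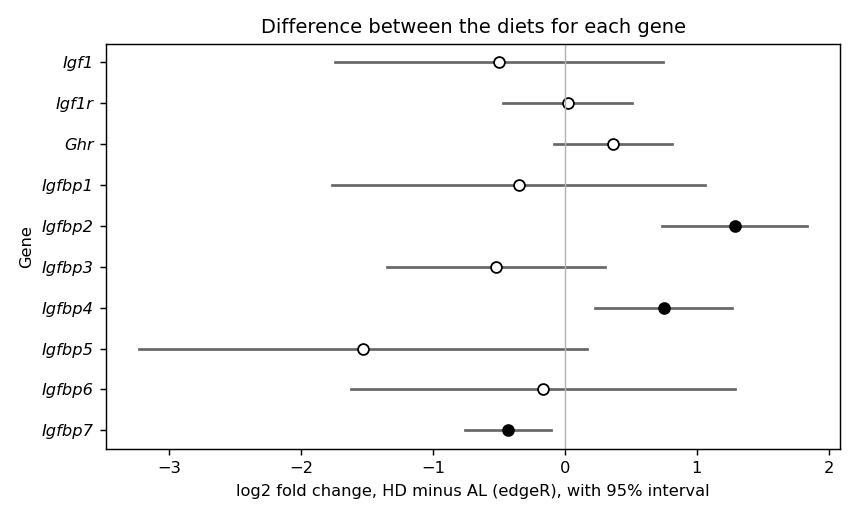
Log2 fold change from edgeR (HD minus AL, x axis) with its 95% interval for each of the 10 genes, where filled points mark an unadjusted *P* value below 0.05. The intervals of Igfbp2 (0.74 to 1.83), Igfbp4 (0.23 to 1.27) and Igfbp7 (-0.76 to -0.11) exclude 0, and those of Igf1, Igf1r and Ghr include it.

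**Figure D3:**
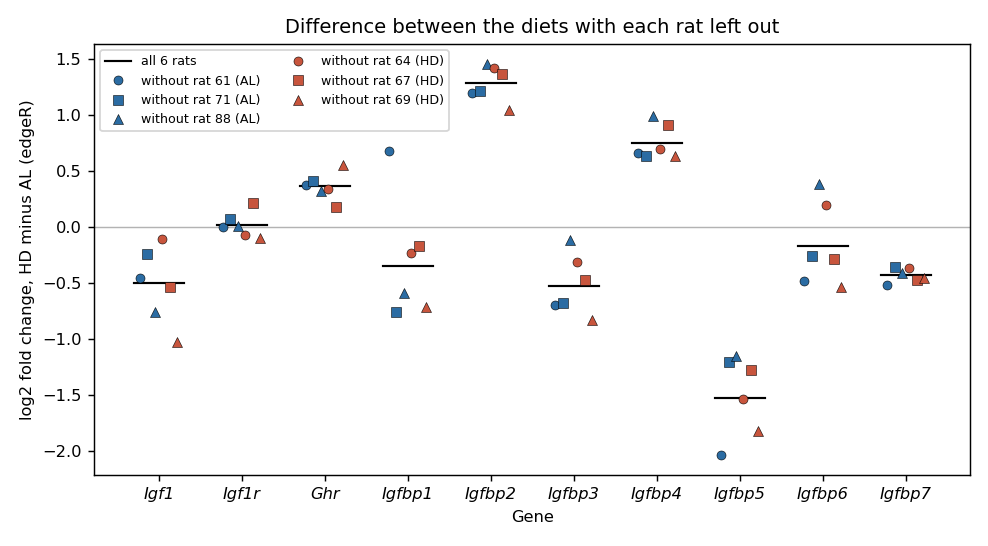
Log2 fold change from edgeR (HD minus AL, y axis) for each gene with all 6 rats (black bar) and with each rat left out (symbols, colored by the group of the rat left out). Igfbp2 and Igfbp4 stay above 0 and Igfbp7 stays below 0 in all cases, and the symbol for Igfbp1 without rat 61 lies at 0.68, on the other side of 0 from its bar.

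A pair of members lies next to each other at each of 2 places in the genome. Igfbp2 and Igfbp5 lie tail to tail on chr9, with 9428 bases between their ends, and Igfbp1 and Igfbp3 lie tail to tail on chr14, with 3863 bases between them. The ratio of the CPM of Igfbp2 to that of Igfbp5 was 0.602, 0.0660 and 0.0855 in rats 61, 71 and 88, and 0.566, 1.01 and 0.686 in rats 64, 67 and 69. Rat 61 was thus near the HD group in this ratio, and only rats 71 and 88 were below it. The ratio of Igfbp1 to Igfbp3 was 30.4, 4.98 and 4.69 in rats 61, 71 and 88, and 15.2, 9.69 and 13.2 in rats 64, 67 and 69, with rat 61 above the HD group and the other 2 rats of the AL group below it. The neighbours on chr9 had log2 fold changes of opposite sign, 1.29 for Igfbp2 and -1.53 for Igfbp5.

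Levels of different genes were compared in TPM, a scale that divides by transcript length and gives each library the same total. By the median over the 6 rats, Igfbp7 was the most abundant member with 1239 TPM (range 985 to 1891), and its range was clear of the next. Igfbp1 followed with 127 TPM (77.8 to 374), Ghr with 76.3 TPM (66.5 to 106), Igfbp5 with 43.4 TPM (14.3 to 165) and Igfbp4 with 39.0 TPM (24.6 to 61.7). The ranges of these neighbours overlapped, and Ghr was above Igfbp5 in 4 of 6 rats and Igfbp5 above Igfbp4 in 2 of 6. Igfbp2 had 21.3 TPM (11.0 to 45.1) and was below Igfbp4 in 6 of 6 rats, although their ranges overlapped. Igfbp3 had 8.94 TPM (5.16 to 17.8), Igf1 6.55 TPM (1.73 to 11.2), Igf1r 5.66 TPM (3.65 to 6.61) and Igfbp6 3.09 TPM (0.91 to 5.41). The ligand and its receptor were thus at the low end of the axis in this organ, and the order of Igfbp3, Igf1 and Igf1r was not settled by these rats.

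In the summed TPM of the 7 binding protein genes, Igfbp7 took 80.7% ± 6.15 (SD, *n* = 3) under AL against 80.0% ± 4.84 (SD, *n* = 3) under HD. The sum itself was 1678, 2188 and 2003 TPM in rats 61, 71 and 88, and 1226, 1322 and 1642 TPM in rats 64, 67 and 69, so that all 3 HD rats were lower. Igfbp2 took 0.652%, 0.631% and 0.862% of the sum in the AL group and 2.06%, 2.08% and 2.74% in the HD group. Igfbp4 took 1.47%, 1.29% and 2.05% in the AL group and 4.26%, 2.78% and 3.76% in the HD group. For both genes the lowest HD share exceeded the highest AL share. The sum was mostly Igfbp7 and was lower in the HD rats, which raises a share even where the gene itself does not change. In CPM the groups overlapped for Igfbp4. These shares use the same counts as the tests above and are no separate evidence.

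Without Igfbp7, the make-up of the other 6 binding proteins separated rat 61 from the rest of its group. Igfbp1 took 86.4% in rat 61, 26.2% in rat 71 and 35.2% in rat 88, against 50.8%, 52.6% and 57.5% in rats 64, 67 and 69. Igfbp5 took 3.30%, 55.3% and 42.8% in the AL group and 14.5%, 10.6% and 12.6% in the HD group. The shares of the HD group lay close together for both genes, between the extremes of the AL group. Igfbp2 took 2.53%, 4.64% and 4.65% in the AL group and 10.5%, 13.6% and 11.0% in the HD group.

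**Figure D4:**
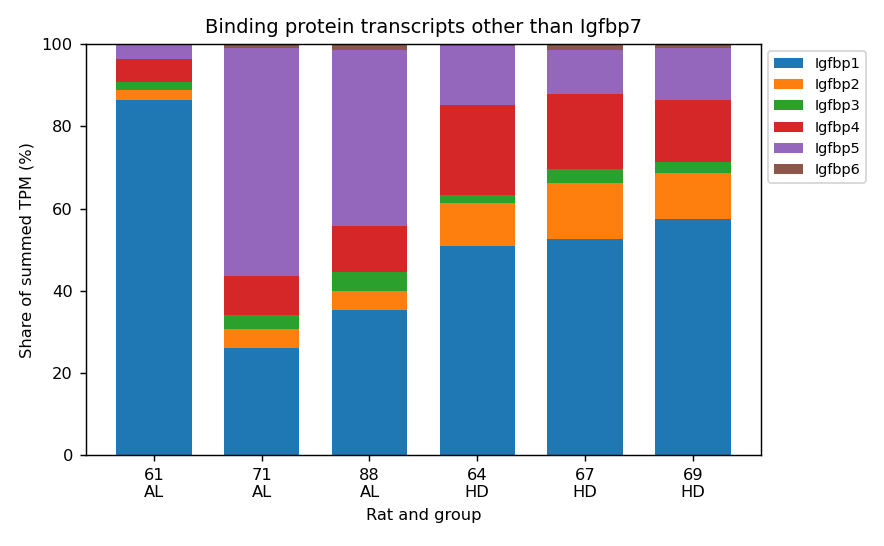
Share of each of Igfbp1 to Igfbp6 in their summed TPM (y axis, percent) in each rat, as stacked bars from 0 to 100. Igfbp1 fills 86.4% of the bar of rat 61, Igfbp5 fills 55.3% of the bar of rat 71 and 42.8% of that of rat 88, and the 3 bars of the HD group resemble each other.

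Other genes of the pathway were read from 6 lists of symbols, of which 82 of 94 genes were tested. Of these, 51 were on the higher and 31 on the lower side with HD, around a median log2 fold change of 0.08. Over all tested genes, 5928 were on the higher and 5625 on the lower side, around a median of 0.0067. With an unadjusted *P* value below 0.05, edgeR had 6 higher and 5 lower, which is 11 of 82 against 10.6% of all tested genes. None of the 82 passed the adjusted threshold in edgeR, and 4 passed it in DESeq2 (Insrr, Mmp9, Klk1 and Gdf15), against 1.58% of all genes that DESeq2 tested.

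Among other ligands, receptors and carriers, 7 of 14 genes were tested and 2 had an unadjusted *P* value below 0.05, both higher. Of all tested genes, 4.66% were higher at this value in edgeR. Igfals, the acid-labile subunit that joins Igfbp3 in the serum complex, was at 4.84, 2.94 and 3.77 CPM in rats 61, 71 and 88, and at 9.85, 10.2 and 5.72 CPM in rats 64, 67 and 69, without overlap (edgeR, log2 fold change 1.16, standard error 0.32, adjusted *P* = 0.398). Such a separation on the higher side was found in 7.25% of the tested genes. Insrr, a receptor of the insulin receptor family that responds to alkaline pH, was at 19.8, 20.8 and 17.4 CPM in the AL group and at 40.8, 23.8 and 43.2 CPM in the HD group. This is 0.89 on the log2 scale with a standard error of 0.23, and the adjusted *P* value was 0.398 in edgeR and 0.0490 in DESeq2. Igf2, the second ligand, was scarce, between 1.25 and 4.76 CPM in all rats, with a log2 fold change of 0.12 that turned to -0.71 without rat 69 and to -0.069 without rat 61. Igf2r, which clears IGF-II, was at 220, 229 and 243 CPM in the AL group and at 332, 307 and 224 CPM in the HD group (edgeR, log2 fold change 0.32, standard error 0.16, adjusted *P* = 0.537), and without rat 69 its log2 fold change was 0.47. Insr, the insulin receptor, had a log2 fold change of 0.30 (edgeR, adjusted *P* = 0.755), with a range from 0.095 without rat 61 to 0.51 without rat 71. Igfals and Insrr stayed on the higher side without each rat, from 0.99 to 1.39 and from 0.74 to 1.12.

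Of the proteases that cut binding proteins and their inhibitors, 10 of 12 genes were tested, with 8 on the higher side and 2 on the lower side. An unadjusted *P* value below 0.05 was found for 3 of them in edgeR, against 10.6% of all tested genes. The gelatinase gene Mmp9 was at 0.953, 3.21 and 2.32 CPM in rats 61, 71 and 88, and at 10.2, 14.7 and 32.3 CPM in rats 64, 67 and 69, with a log2 fold change of 3.12 (edgeR, standard error 0.56, adjusted *P* = 0.327). Klk1, tissue kallikrein, which is made in the connecting tubule, was at 27.2, 81.5 and 47.6 CPM in the AL group and at 528, 164 and 308 CPM in the HD group, with a log2 fold change of 2.67 (edgeR, standard error 0.52, adjusted *P* = 0.338). These 2 genes were the ones of the list past the adjusted threshold in DESeq2, and without single rats their log2 fold changes ran from 2.51 to 3.52 for Mmp9 and from 2.18 to 3.16 for Klk1. The order of the HD rats for Klk1 was also that of the summed distal convoluted tubule markers, of which 2 of 3 tested genes were on the higher side. The sums were 210, 225 and 210 CPM in rats 61, 71 and 88, and 812, 285 and 631 CPM in rats 64, 67 and 69. This order was not particular to that list. The principal cell sum (1804, 1434 and 1689 CPM in rats 64, 67 and 69) had it too, as did the adrenal cortex sum (5.86, 2.35 and 4.86 CPM). In the distal convoluted tubule list Pvalb was at 3 counts or fewer in every rat, and the part of the markers in the Klk1 result was not tested. The gelatinase gene Mmp2 was on the lower side, with a log2 fold change of -1.07 (edgeR, adjusted *P* = 0.465) that ran from -1.53 without rat 69 to -0.72 without rat 71. Pappa, the protease of Igfbp4, had a log2 fold change of 0.11 (edgeR, adjusted *P* = 0.967), and its sign turned without rat 64 (-0.26) and without rat 88 (-0.21). Its inhibitors Stc1 and Stc2 had -0.46 and 1.06 (edgeR, adjusted *P* = 0.643 and 0.736). The value of Stc1 ran from -0.75 without rat 67 to -0.28 without rat 69, and that of Stc2 was 0.088 without rat 69 and 0.68 without rat 61.

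Downstream of the growth hormone receptor, 1 of 11 genes was below an unadjusted *P* value of 0.05 in edgeR, against 10.6% of all tested genes. This was Stat5a, a transcription factor of the growth hormone signal, at 27.5, 35.1 and 39.4 CPM in the AL group and at 23.6, 25.9 and 27.3 CPM in the HD group (edgeR, log2 fold change -0.41, standard error 0.16, adjusted *P* = 0.432), with a range from -0.54 without rat 61 to -0.28 without rat 88. The related gene Stat5b of the same list had a log2 fold change of 0.02 (edgeR, adjusted *P* = 0.988). Its sign turned without rat 61 (-0.16) and without rat 64 (-0.041). The feedback genes Socs2 and Cish had log2 fold changes of -0.53 and 0.47 (edgeR, adjusted *P* = 0.752 and 0.733), and that of Cish was 0.92 without rat 61 and 0.14 without rat 88. Downstream of Igf1r, 1 of 32 tested adaptor and PI3K-Akt-mTOR genes was below that value, with 23 on the higher side and 9 on the lower side and a median log2 fold change of 0.09. It was Pik3r3, a regulatory subunit of PI3K, at 7.55, 7.98 and 8.74 CPM in the AL group and at 3.99, 3.20 and 5.28 CPM in the HD group (edgeR, log2 fold change -0.95, standard error 0.25, adjusted *P* = 0.398), with a range from -1.17 to -0.79 without single rats. Irs1 and Irs2, the main docking proteins of the receptor, had log2 fold changes of 0.06 and -0.35 (edgeR, adjusted *P* = 0.976 and 0.640). The sign of Irs1 turned without rat 61 (-0.11) and without rat 69 (-0.052), and Irs2 was at -0.049 without rat 71. Transcript levels do not show the phosphorylation by which this pathway signals. The 5 genes of CCN proteins, distant relatives of the binding proteins, had 0 below an unadjusted *P* value of 0.05 in edgeR and 0 past the adjusted threshold in DESeq2.

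Of 17 tested genes of other renal growth factors and their receptors, 2 higher and 2 lower were below an unadjusted *P* value of 0.05 in edgeR. The shares of all tested genes were 4.66% higher and 5.94% lower. Gdf15, a stress-responsive factor of the TGF-beta family, was at 51.0, 39.2 and 27.3 CPM in rats 61, 71 and 88, and at 139, 95.6 and 115 CPM in rats 64, 67 and 69 (edgeR, log2 fold change 1.57, standard error 0.24, adjusted *P* = 0.269, with 9.08e-07 in DESeq2). Bmp7, which maintains nephron epithelia, was at 60.8, 59.6 and 49.6 CPM against 85.1, 68.8 and 81.3 CPM (edgeR, log2 fold change 0.47, standard error 0.13, adjusted *P* = 0.398). The groups did not overlap for either gene, and all HD rats were above all AL rats in 7.25% of the tested genes. Without single rats the log2 fold changes ran from 1.38 to 1.81 for Gdf15 and from 0.39 to 0.55 for Bmp7. Hgf, made by mesenchymal cells, was at 0.874, 5.82 and 2.51 CPM against 0.679, 0.749 and 0.543 CPM (edgeR, log2 fold change -2.24, standard error 0.67, adjusted *P* = 0.404), and Pdgfrb, a receptor of mesangial cells and pericytes, had a log2 fold change of -1.18 (edgeR, adjusted *P* = 0.423). Hgf was at -1.38 without rat 71, and Pdgfrb was at -1.82 without rat 69 and -0.92 without rat 64. Egf had a log2 fold change of -0.21 (edgeR, adjusted *P* = 0.791), which was -0.44 without rat 69 and -0.075 without rat 61.

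The genes whose levels followed those of 3 members most closely were found by the root mean square difference of centred log2 levels over the 6 rats, among 9381 tested genes with a mean of at least 5 CPM. For Igfbp2 the nearest gene was Irf4, a transcription factor of lymphocytes, with a difference of 0.06 on the log2 scale, followed by Tmem150c (0.24) and Fzd5, a Wnt receptor (0.30), against a median of 0.69 over all candidates. Irf4 was at 3.49, 3.82 and 4.70 CPM in rats 61, 71 and 88, and at 8.49, 9.49 and 13.1 CPM in rats 64, 67 and 69. For Igfbp4 the nearest genes were Lrp3 (0.16), Cwh43 (0.17) and Slc29a1, a nucleoside transporter (0.17), against a median of 0.50. For Igf1 they were Bcl6b, a transcription factor of endothelial cells (0.18), Rbm20 (0.25) and Prss53 (0.28), against a median of 0.78. No test was attached to these distances.

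Marker sums of other cell types were read beside the members in every rat. For the podocyte markers, 9 of 10 were on the higher side, and the sum was 96.2 to 199 CPM in the AL group and 198 to 400 CPM in the HD group. For the proximal tubule markers, 9 of 10 were on the higher side, and the sum was 14743 to 18254 CPM in the AL group and 20054 to 23310 CPM in the HD group. Igfbp2, Igfbp4 and Ghr were on the same side as these 2 lists, which were not the only ones there. Most intercalated cell markers (6 of 7, with overlapping sums) and distal convoluted tubule markers (2 of 3 tested) were also on the higher side. On the lower side with Igfbp7 stood the macrophage and leukocyte markers, 11 of 11 tested (sum 267 to 480 CPM in the AL group and 160 to 339 CPM in the HD group), and the inner medulla markers, 7 of 7 (294 to 881 CPM and 181 to 299 CPM). Fibroblast markers, 5 of 7 on the lower side, summed to 167 to 429 CPM in the AL group and 99.8 to 213 CPM in the HD group. Endothelial markers, 8 of 10 on the lower side, summed to 348 to 459 CPM in the AL group and 222 to 459 CPM in the HD group. Thick ascending limb markers, 7 of 8 on the lower side, summed to 4289 to 4587 CPM in the AL group and 3432 to 4944 CPM in the HD group. Principal cell markers (3 higher, 4 lower) and mesangial and smooth muscle markers (5 higher, 5 lower) were on both sides. Within the HD group, rat 64 had the lowest Igf1 and also the lowest endothelial and fibroblast sums (222 and 99.8 CPM). Its podocyte (198 CPM), mesangial and smooth muscle (96.9 CPM), thick ascending limb (3432 CPM), adipocyte and skeletal muscle sums were the lowest of that group as well. Its proximal tubule, distal convoluted tubule, principal cell, intercalated cell and adrenal cortex sums were the highest, and its other sums lay in between. The part of these cell types in the results of the members was not tested. Of the organs that could be carried along, hepatocyte markers summed to 25.4 to 39.5 CPM with Ahsg at 3 counts or fewer in every rat, and adrenal cortex markers to 2.35 to 7.47 CPM with Cyp11b1 and Cyp11b2 at 3 counts or fewer. Adipocyte markers, 5 of 5 on the higher side with a median log2 fold change of 1.33, summed to 283, 171 and 187 CPM in AL rats 61, 71 and 88, and to 171, 413 and 368 CPM in HD rats 64, 67 and 69. Skeletal muscle markers summed to 3.82 to 6.45 CPM. The part of these markers in the results of the members was likewise not tested.

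**Figure D5:**
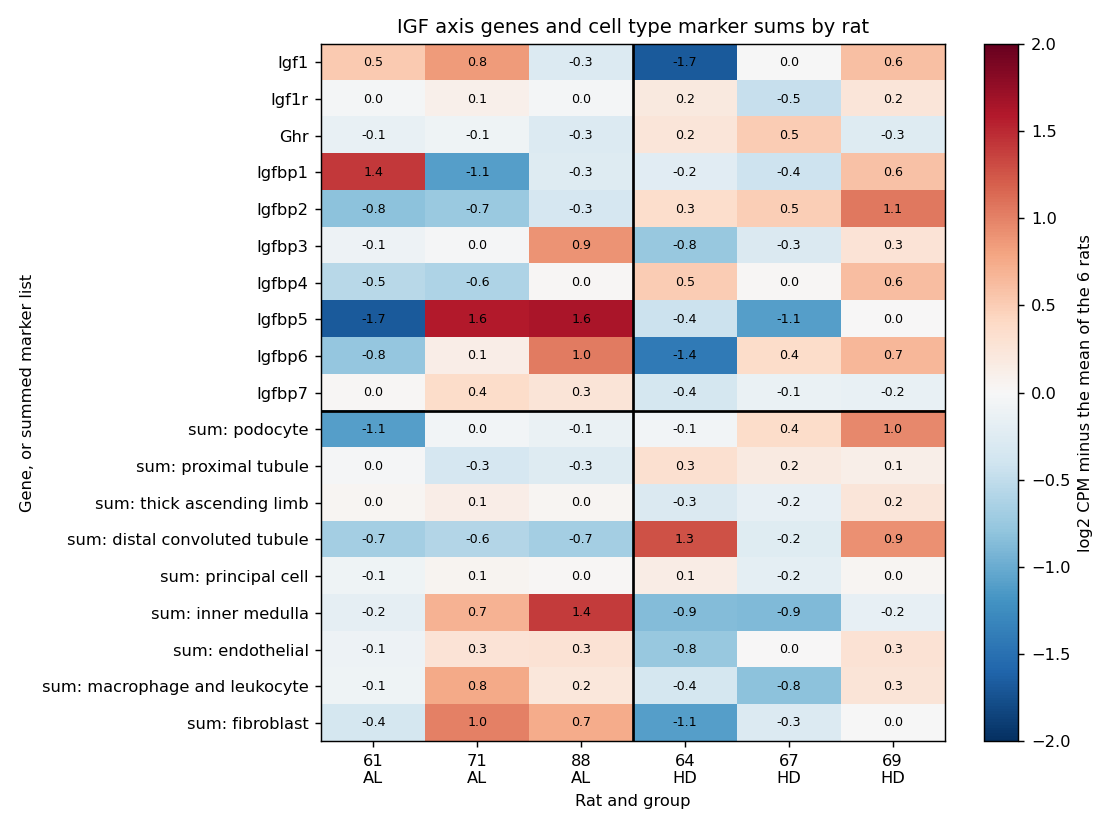
Log2 CPM minus the mean of the 6 rats (color and printed value) for the 10 genes and, below the horizontal line, for 9 summed marker lists, with the AL rats left and the HD rats right of the vertical line. Igfbp2 is below its mean in the 3 AL rats and above it in the 3 HD rats, and Igfbp5 is high in rats 71 and 88, where the inner medulla and fibroblast sums are high as well.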

How the data were processed

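Kidney RNA of 6 rats, 1 library a rat, was poly(A)-selected and sequenced from single ends with a kit that does not mark the strand. The authors quantified transcripts with RSEM 1.1.15 (submitters' processing notes) on gene definitions of rn5, and deposited estimated counts (expected counts), which are not normalized, and TPM for each transcript and rat. Filters on reads are not given in the sources used here. FPKM values were not used.

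Here the estimated counts were summed per gene and rounded, genes with at least 30 counts in at least 1 rat were kept, and the diets were compared with edgeR 4.0.16 (R 4.3.3, quasi-likelihood test, TMM, Benjamini-Hochberg adjustment over 11553 genes, threshold 0.05). The standard error is the absolute log2 fold change divided by the square root of F. DESeq2 1.42.0 was an alternative, beside other scalings, filters, the robust fit, posterior mean counts and the omission of each rat. Exact permutation tests used log2 of CPM plus 0.5 over the 10 splits and cannot give less than 0.1. The scripts were tested on simulated counts. TPM of a gene's transcripts were summed without a test. Motifs were searched on both strands of RefSeq windows with Python 3.11.15.

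The members and lists were chosen with earlier results of these data known. Named were the members, pathway genes with an unadjusted *P* value below 0.05 (at most 8 a list), a few fixed genes (Igf2, Igf2r, Insr, Igfals, Pappa, Pappa2, Stc1, Stc2, Socs2, Cish, Irs1, Irs2 and Egf), and the 3 nearest genes to Igf1 and to the 2 members with the smallest *P* values. Pappa2 was not among the quantified genes, so that it could not be analysed here.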

Additional observations from a re-analysis of the deposited data

How the results depend on the processing

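The number of genes past the adjusted threshold, 0 in edgeR, was 2 with all genes above a count of 0, 182 with DESeq2 and between 0 and 4 without single rats (2 without rat 61, 4 without rat 64, 2 without rat 67). The 1224 genes with an unadjusted *P* value below 0.05 became between 606 (without rat 88) and 1744 (without rat 69), and 639 without rat 64. Of the members, DESeq2 called 1, Igfbp2, with a log2 fold change of 1.28, and edgeR called 0 under every other setting tried. Without single rats, between 2 and 4 members had an unadjusted *P* value below 0.05 (4 without rats 61 and 69, 2 without rats 64, 71 and 88). Of 129 recomputed log2 fold changes of members, 122 kept their sign and side of the adjusted threshold, 1 passed it and 6 turned sign. Those that turned were Igf1r with library size alone (-0.057) and without rats 64 and 69 (range without single rats -0.10 to 0.22), Igfbp1 without rat 61 (-0.76 to 0.68) and Igfbp6 without rats 64 and 88 (-0.54 to 0.38). The cause was not tested. Library size alone moved the median of all genes to -0.07. Shares from CPM per kilobase in place of TPM moved by less than 1 SD. With at least 10 counts in every rat, Igfbp6 was not tested. No paired analysis was possible because different rats were assigned to the 2 diets at random and the labels pair none of them.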
